A study of Mus musculus with 2 samples.

Results

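The early B-cell factor genes Ebf1, Ebf2, Ebf3 and Ebf4 were examined for differences in DNA methylation between PDGFRα+ and CD137+ adipose progenitors of the mouse. Of 34139 deposited differentially methylated regions, 72 overlapped the RefSeq body of 1 of these 4 genes extended by 50 kb on both sides. The 72 were chosen by position, and the genes were chosen with earlier results of these data known, so all values below are descriptions and no p-value was computed. Whole-genome bisulfite sequencing, which tells methylated from unmethylated cytosines, was run on 1 library of PDGFRα+ cells and 1 library of CD137+ cells. Both came from C57BL/6 adipose tissue, both were exposed to DEX (dexamethasone, a synthetic glucocorticoid), and both had been sorted with magnetic beads from subcutaneous or visceral fat before culture in an adipogenic cocktail. The labels give neither the depot of each library nor how many animals it drew on, and no unexposed library was compared. A list of regions between libraries holds no level per library, so the labelled cell types could not be checked against their markers.

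Early B-cell factors are transcription factors that bind DNA as dimers at a palindromic site and share a DNA-binding domain, an immunoglobulin-like domain and a helix-loop-helix dimerisation domain. In adipose tissue EBF1 and EBF2 act upstream of, and together with, the regulators of fat cell formation. EBF1 is best known for committing lymphoid precursors to the B lineage and also promotes adipocyte differentiation. EBF2 marks precursors of brown and beige fat and directs PPARγ to brown-selective genes. EBF3 is known mainly from neural development and from mesenchymal cells of the bone marrow, and EBF4 is the least studied of the family. Developmental regulators of this kind often lie in broad stretches of DNA that stay free of methylation around their starts.

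Each region carries the authors' signed score, which is neither a methylation level nor a percent difference. The list is named with the PDGFRα+ sample before the CD137+ sample. If the score was taken in that order, a positive value means higher methylation in PDGFRα+ cells than in CD137+ cells. That direction is not stated, and "positive" and "negative" below refer to the score alone. Coverage behind each region is unknown, and with 1 library per group no score could be set against replicate error. Positions are mm10, counted from 1 with the list taken as BED. The gene table gives no exons, so exonic, intronic and untranslated bases were not told apart.

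RefSeq promoters (build GRCm38.p6, 250 bases before to 50 after a listed start) were at hand for 3 of the 4 genes, and Ebf2 had no entry. They are shown because the strongest regions of Ebf1 and Ebf3 lay beside these starts. The second listed start of Ebf1 is the only one of the 4 listed starts whose promoter overlapped a region, at chr11:44619978-44620277 on the plus strand, and capitals there mark the 149 bases inside that region. The first listed start of Ebf1 (chr11:44617850-44618149, plus strand) and the listed start of Ebf3 (chr7:137314396-137314695, minus strand) overlapped none, and capitals there mark CpG dinucleotides, the sites at which mammalian DNA is mainly methylated.
Ebf1 second start: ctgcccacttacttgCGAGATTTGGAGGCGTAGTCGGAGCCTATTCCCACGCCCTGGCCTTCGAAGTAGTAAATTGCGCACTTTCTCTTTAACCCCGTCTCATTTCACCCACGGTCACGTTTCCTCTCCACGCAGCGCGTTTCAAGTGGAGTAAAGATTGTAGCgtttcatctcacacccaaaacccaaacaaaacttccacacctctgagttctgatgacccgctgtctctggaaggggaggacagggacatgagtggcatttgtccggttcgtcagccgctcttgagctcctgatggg
Ebf1 first start: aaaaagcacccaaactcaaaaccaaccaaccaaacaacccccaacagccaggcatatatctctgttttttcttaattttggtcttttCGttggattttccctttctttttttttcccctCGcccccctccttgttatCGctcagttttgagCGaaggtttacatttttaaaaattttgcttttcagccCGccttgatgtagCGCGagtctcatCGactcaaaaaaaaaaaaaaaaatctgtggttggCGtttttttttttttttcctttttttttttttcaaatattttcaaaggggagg
Ebf3 start: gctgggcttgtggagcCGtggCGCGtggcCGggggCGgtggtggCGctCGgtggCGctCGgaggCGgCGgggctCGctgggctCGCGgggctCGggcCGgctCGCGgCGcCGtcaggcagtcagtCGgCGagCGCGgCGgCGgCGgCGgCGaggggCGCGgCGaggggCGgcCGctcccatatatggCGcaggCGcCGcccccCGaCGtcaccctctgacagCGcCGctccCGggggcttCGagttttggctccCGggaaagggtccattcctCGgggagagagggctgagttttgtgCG

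The promoters differed in CpG content. The Ebf3 promoter held 46 CpG sites, a number reached by 1.65% of the 32851 promoters of this length, and the Ebf4 promoter held 35, reached by 6.95%. The second Ebf1 promoter held 17 CpG sites, 12 of them inside the region, and the first held 9, against a median of 7 over all promoters. The core of the palindrome bound by early B-cell factors was searched as CCCNNGGG, which reads the same on both strands. It was found once among the 4 promoters, in that of Ebf3 as CCCGGGGG from base 230, and in 13.7% of all promoters.

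Ebf1, Ebf2 and Ebf3 carried many regions of mostly positive score, whereas Ebf4 carried a single one. Of the 72 regions 62 were positive, or 86.1% (95% Wilson interval 76.3 to 92.3), and 10 were negative. Over the whole list 32.6% were positive. Ebf1 had 25 positive regions and 1 negative, Ebf2 had 20 and 3, and Ebf3 had 16 and 6. The positive share was thus 96.2% (81.1 to 99.3) at Ebf1, 87.0% (67.9 to 95.5) at Ebf2 and 72.7% (51.8 to 86.8) at Ebf3. These intervals overlap one another, and all 3 shares lie above that of the whole list. Neighbouring regions are not independent, and the intervals allow only for how many were counted.

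The regions of the Ebf genes were also wider and of larger score than the list in general. An absolute score of 100 or more was found in 26 of the 72, or 36.1%, against 15.5% of all regions. Positive scores of that size made up 20 of the 72, or 27.8%, against 5.07% of all regions. Larger scores were not particular to the positive regions. The median absolute score was 139.6 for the 10 negative regions and 62.5 for the 62 positive ones. Over the list these medians were 49.5 and 49.3. A width of 500 bp or more was found in 8, or 11.1%, against 2.56% of all regions. The median width was 148 bp at the Ebf genes and 112 bp over the list, and the median absolute score was 65.7 and 49.4. The comparisons of score above do not allow for width. Per bp of width the median absolute score was 0.519 at the Ebf genes and 0.430 over the list. It was 0.273 over the 874 regions of at least 500 bp, so the value per bp is not free of width either.

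**Figure D1:**
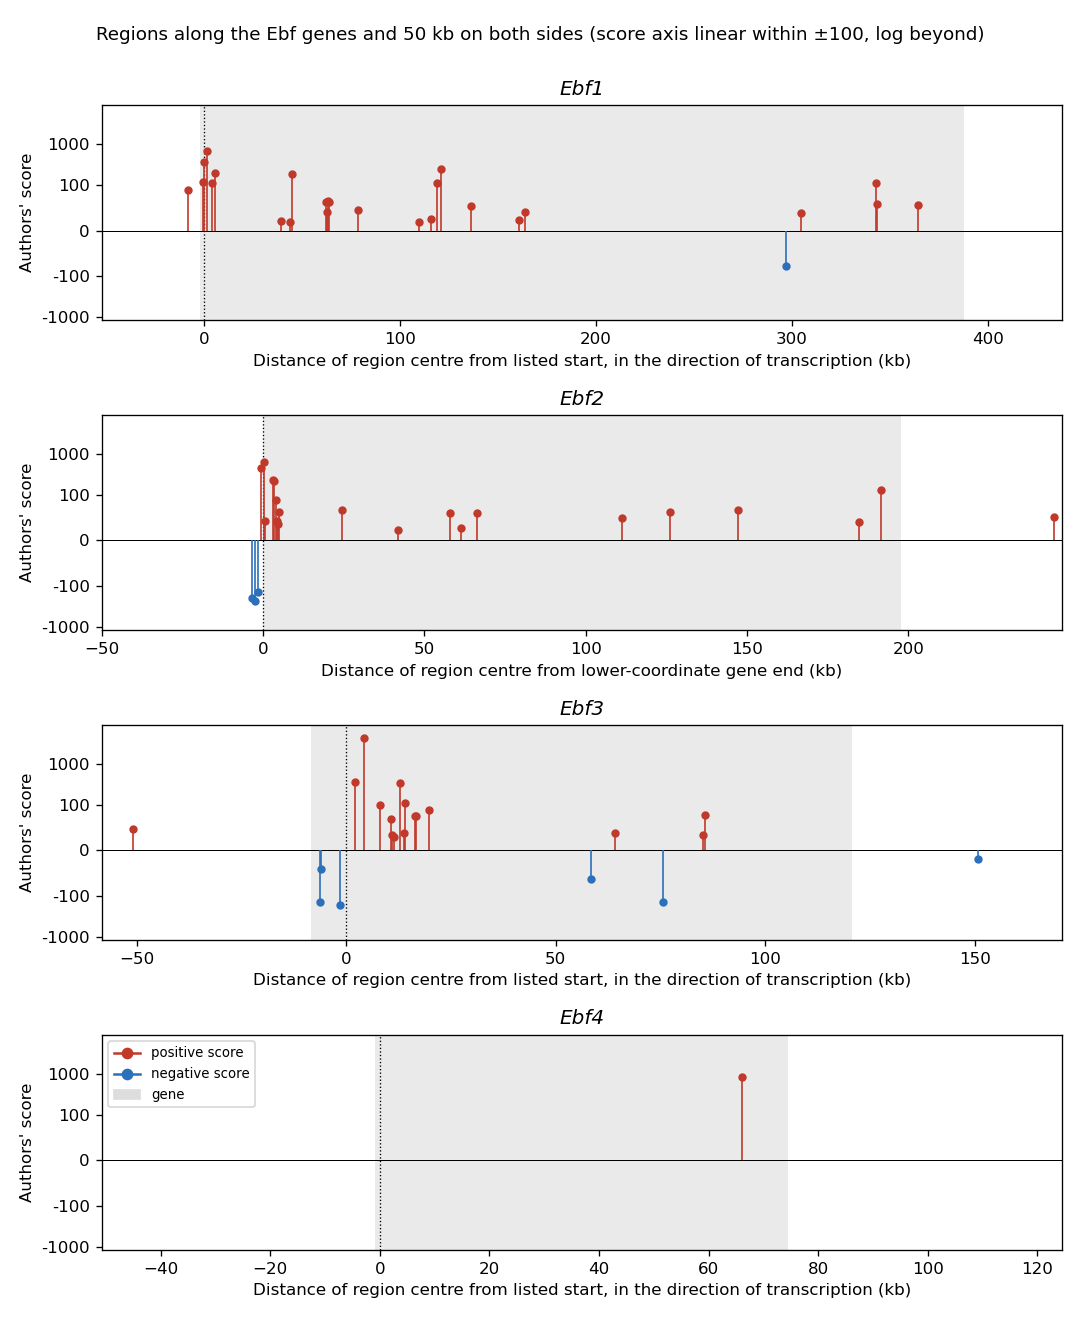
Score of every region (vertical axis, linear within ±100 and logarithmic beyond) against the distance of its centre from the gene start in kb, for Ebf1, Ebf2, Ebf3 and Ebf4 from top to bottom, with the gene shaded. For Ebf2 the axis starts at the lower-coordinate end of the gene. Red points are positive and blue points negative: Ebf1 has 25 red points and 1 blue, and Ebf4 has a single point with a score of 841.

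Ebf1 (gene ID 13591, chromosome 11, 44618100 to 45008096, 390.0 kb) had 26 regions, 25 of them inside the gene. Only 0.224% of 21887 protein-coding genes had as many regions within 50 kb. Long genes have larger windows, and per 100 kb of window Ebf1 had 5.31 regions, a density reached by 2.45% of protein-coding genes. Counting positive regions alone, 0.00914% of protein-coding genes, which is 2 genes with Ebf1 itself, reached its 25.

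The largest scores at Ebf1 lay next to its second listed start at 44620228. A region of 1168 bp from 44621110 to 44622277, which begins 882 bp into the gene from that start, scored 663 and ranked 24 among all positive regions. A region of 440 bp from 44620336 to 44620775, beginning 108 bp after the start, scored 369. The 149 bp region printed in capitals above, from 44619993 to 44620141, ends 87 bp before the start and scored 117. Further regions of 418 bp and 719 bp followed 4.16 kb and 5.58 kb into the gene, with scores of 114 and 199.5. All 5 of these regions were positive, and so was the only region outside the gene, 5.60 kb below its lower end (44612211 to 44612496, score 88.8). Within 10 kb of the start there were 6 regions, none negative, and they held 53.4% of the summed absolute score of Ebf1.

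The other 20 regions of Ebf1 ran through the gene to 364 kb from the start. They were weaker, with a median absolute score of 55.4, against 158 for the 6 near the start. Among them, a region of 314 bp 120.8 kb into the gene (44741044 to 44741357) scored 241 and a region of 207 bp 45.1 kb into it (44665324 to 44665530) scored 189. A group of 4 neighbouring regions lay between 62.5 and 64.1 kb, with scores of 61.7, 40.6, 64.3 and 63.1. The third of these was 752 bp wide, so that it was among the wide regions of the list but scored only 0.0855 per bp. No region was listed over 133 kb between 44784056 and 44917112. Beyond that gap came the single negative region, of 122 bp and score -77.2, and then 4 positive ones, the strongest with a score of 109.

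Ebf2 (gene ID 13592, chromosome 14, 67233292 to 67430952, 197.7 kb) had 23 regions, of which 18 lay inside the gene, and all 18 were positive. As many regions were found at 0.288% of protein-coding genes, and its density of 7.73 regions per 100 kb of window was reached by 0.507%. Its 20 positive regions were matched or exceeded at 0.0228%. Its regions were more concentrated than those of Ebf1. Within 10 kb of the lower-coordinate end of the gene lay 12 regions with 78.8% of the summed absolute score.

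At that end of Ebf2 the sign changed within 429 bp. On the outside stood 3 negative regions, from 67229734 to 67229933 (score -199.8), from 67230535 to 67230926 (score -226) and from 67231840 to 67232009 (score -142). They were the only negative regions of the gene. The next region, from 67232439 to 67233019, was positive with a score of 445, and a region of 725 bp from 67233126 to 67233850, which spans the gene end, scored 642. Both overlapped Gm20675, a long noncoding RNA gene at this end of Ebf2, so they cannot be assigned to Ebf2 alone. Inside the gene came a region of 65 bp with a score of 41.7, and then 6 short positive regions between 3.03 and 5.13 kb, the first pair of them with scores of 237 and 213 and the other 4 between 35.2 and 89.4.

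Farther into Ebf2 the regions were sparse. The 11 regions more than 10 kb from the lower-coordinate end were all positive and 57 to 216 bp wide, with scores from 23.7, a median of 59.6 and a highest score of 130.0 (216 bp, from 67424634 to 67424849, 6.10 kb inside the upper end). Of these, 3 also lay in the noncoding RNA gene 4930438E09Rik and 1 each in Gm52149 and Gm38409. The last, at 47.6 kb beyond the gene, was the region just inside the 50 kb limit, with a score of 50.8, and the nearest region outside it stood 149 kb from the gene with a score of -115.

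Ebf3 (gene ID 13593, chromosome 7, 137193671 to 137322805, 129.1 kb) held the strongest and widest region of the whole list. It covered 3191 bp from 137308629 to 137311819 and scored 4147, which was 66.6% of the summed absolute score of the gene. Ebf3 is read from the minus strand, and this region lay 2.63 to 5.82 kb after the listed start at 137314445. A second wide region, of 1147 bp from 137311887 to 137313033, was separated from it by only 67 bp, on the side of the start, and scored 358. The pair differed in score per bp, at 1.30 for the wider and 0.312 for the narrower. Among the 874 regions of at least 500 bp these ranked 10 and 368.

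Around the Ebf3 start the sign changed across a gap of 2692 bp without a region. The sign change at Ebf2, by contrast, lay outside a gene end at which no start was listed. The CpG-rich Ebf3 promoter printed above lies in the gap of 2692 bp and overlapped no region. On its upstream side stood 3 negative regions, 1.28 to 6.44 kb before the start, with scores of -166 (412 bp, 137315726 to 137316137), -40.2 (82 bp) and -139 (206 bp, 137320677 to 137320882). On its downstream side stood an unbroken series of 12 positive regions over 18.4 kb, from 137294677 to 137313033. Apart from the 2 wide ones, the strongest in this series were a region of 449 bp with a score of 341 (137301341 to 137301789), one of 213 bp with a score of 109 and one of 330 bp with a score of 100.1. The RefSeq gene reaches 8.36 kb beyond the listed start, so the 3 negative regions are still inside the annotated gene.

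The remaining 7 regions of Ebf3 were mixed in sign, with absolute scores of 19.1 to 140.1 and a median of 47.7. In the gene, between 58.4 and 85.6 kb from the start, 2 negative regions scored -140.1 (216 bp, also inside the noncoding RNA gene Gm10578) and -62.7, and 3 positive regions scored 38.9, 33.4 and 76.6. Outside the gene, a positive region 42.4 kb beyond its upper end scored 47.7 and a negative one 29.9 kb beyond its lower end scored -19.1. With 22 regions Ebf3 stood at a number reached by 0.329% of protein-coding genes, and its density of 9.60 regions per 100 kb of window was reached by 0.283%. As many positive regions as its 16 were found at 0.0822%.

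**Figure D2:**
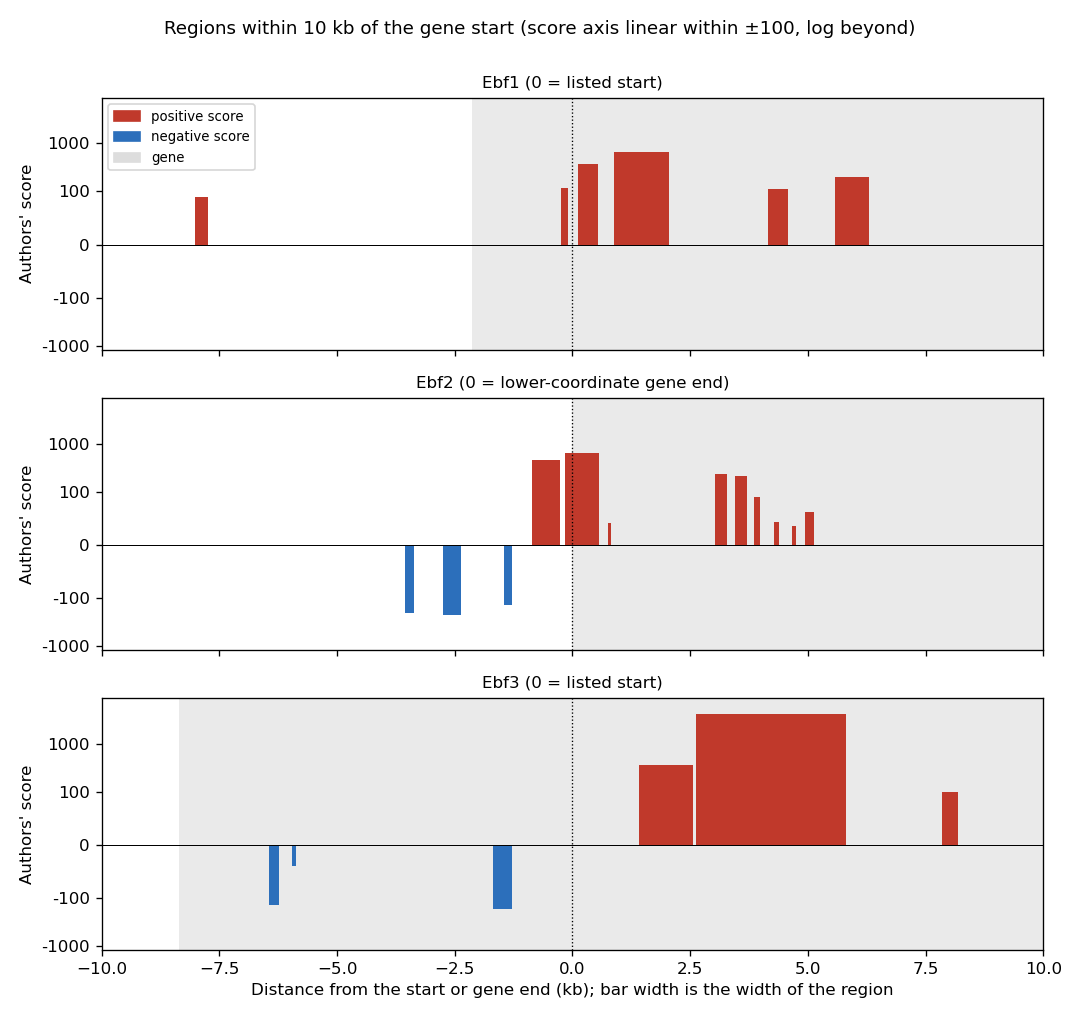
Regions within 10 kb of the second listed start of Ebf1, the lower-coordinate end of Ebf2 and the listed start of Ebf3, from top to bottom, with the distance in kb on the horizontal axis and the score on the vertical axis (linear within ±100, logarithmic beyond). Each bar has the width of its region. Ebf1 has 6 positive bars, while Ebf2 and Ebf3 each have 3 negative bars to the left of 0 and positive bars of 100.1 to 4147 at Ebf3 and 35.2 to 642 at Ebf2.

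Ebf4 (gene ID 228598, chromosome 2, 130295126 to 130370482, 75.4 kb) differed from its relatives in holding a single region within 50 kb. At least 1 region was found at 68.5% of protein-coding genes, so this count is near the background. The region was strong, with a score of 841 over 581 bp (130361848 to 130362428), and ranked 10 among all positive regions and 26 by absolute score. Per bp it scored 1.45, which ranked 6 among the 874 regions of at least 500 bp, above the 1.30 of the strongest Ebf3 region. It lay 65.9 kb after the listed start and 8.05 kb before the far end of the gene, and the promoter, with its 35 CpG sites, overlapped no region. The nearest region outside the limit was 81.1 kb from the gene and scored -58.4.

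A region with an absolute score of 100 or more was present at 4 of 4 members, against 24.8% of protein-coding genes. Window length, which was 175.4 to 490.0 kb at the members, was not allowed for. The genes nevertheless differed in where the score was found. Within 10 kb of the start, or of the lower-coordinate end for Ebf2, Ebf3 held 79.5% of its summed absolute score, Ebf2 78.8%, Ebf1 53.4% and Ebf4 none. The positive regions covered 6227 bp at Ebf1, 3654 bp at Ebf2, 6773 bp at Ebf3 and 581 bp at Ebf4, and the negative ones 122, 762, 1085 and 0 bp.

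**Figure D3:**
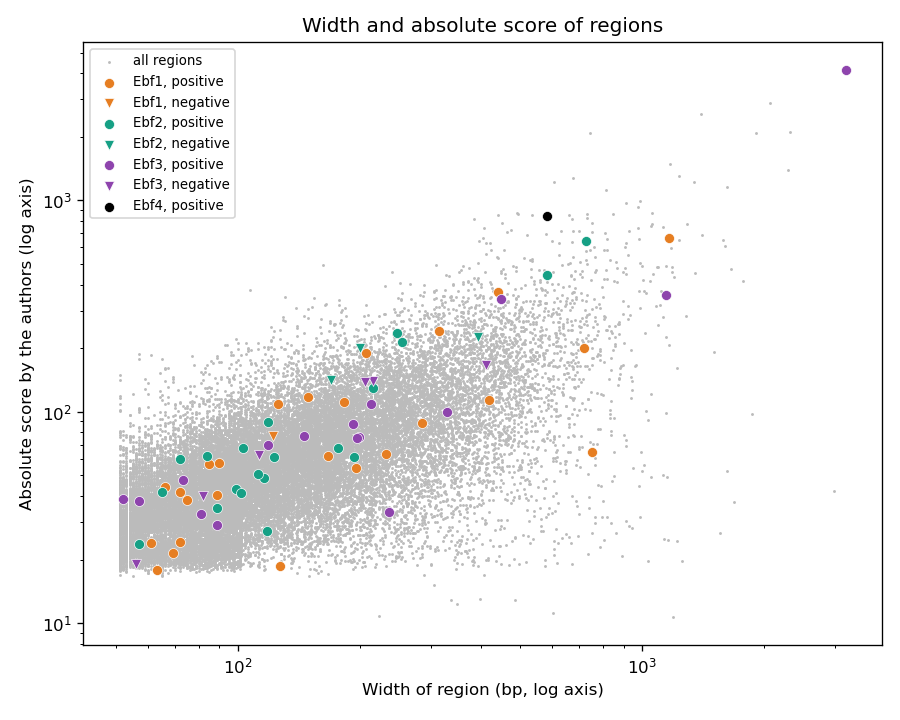
Absolute score against width in bp, both on log axes, for all 34139 regions (grey) and those of the Ebf genes (coloured, circles positive and triangles negative). The strongest Ebf3 region stands alone at 3191 bp and 4147, and the Ebf4 region, at 581 bp and 841, lies near the upper edge of the grey cloud for its width.

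Of the positive regions, 21 of 25 at Ebf1, all 20 at Ebf2 and 12 of 16 at Ebf3 stood in 1 unbroken run at each gene. In genome order, the list breaks into 6342 runs of positive regions, with a median of 1 region. The run at Ebf1 had 22 regions, 21 of them within the 50 kb window, over 315 kb, and was the longest positive run of the list. The run at Ebf2 had 20 regions over 246 kb, a length reached by 3 positive runs in all. The run of 12 at Ebf3 was reached by 14. Negative regions broke the series at Ebf1, where 1 stood before the last 4 positive regions, and at Ebf3, whose other positive regions formed runs of 2, 1 and 1. Negative regions, which are more frequent, formed runs of up to 32. Run length also depends on how many regions a gene has, and it was not set against genes of like length.

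**Figure D4:**
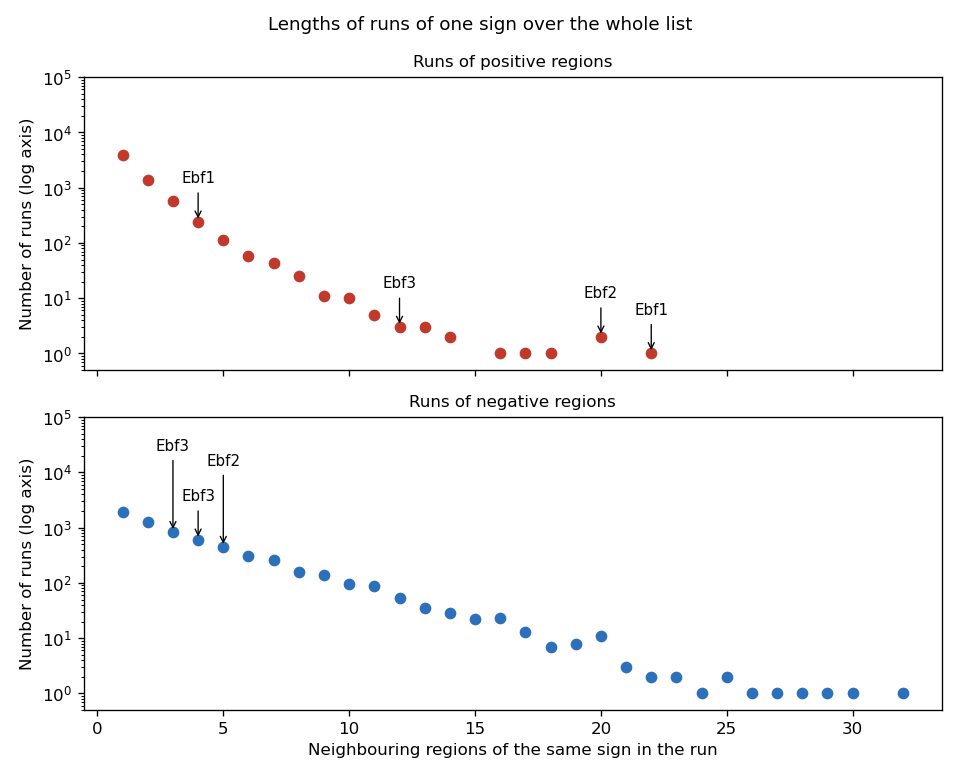
Number of runs (vertical log axis) by the number of neighbouring regions of the same sign in a run (horizontal axis), for positive runs above and negative runs below, over the whole list. Arrows mark the runs of 3 or more regions at the Ebf genes, with Ebf1 at 22, Ebf2 at 20 and Ebf3 at 12 among the positive ones.

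Genes of the EBF pathway were taken as 3 lists, of partner proteins, of adipogenic and thermogenic targets, and of B-lineage targets and partners. The lists were likewise chosen with earlier results known. Their regions were counted within 50 kb, so they can lie outside the gene. Whether another gene was nearer was not examined for the lists, and window length was not allowed for. Partner genes had regions within 50 kb at 5 of 7 members, against 68.5% of protein-coding genes, and at each of the 5 both signs were present. Of their 103 regions 34.0% were positive (25.6 to 43.6), against 86.1% at the Ebf genes and 32.6% over the list. That share rests on Prdm16, and without it 29 of 48 regions, or 60.4% (46.3 to 73.0), were positive. Prdm16, which encodes a coregulator that acts with EBF2 in brown fat, held 55 of them, 49 negative, with a strongest score of -627. Zfp423 and Zfp521, which encode zinc finger proteins that bind early B-cell factors and hold back their activity, had 11 of 17 and 10 of 15 positive, with strongest scores of 416 and 86.6. Dpf3, which encodes a chromatin reader regulated by EBF2, had 4 of 9 positive and a strongest score of -245. Tle3 had 4 of 7 positive and a strongest score of -127, in a region outside the gene. Hnrnpu and Smarca4 had none.

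Adipogenic and thermogenic targets had regions at 11 of 12 members, against 68.5% of protein-coding genes. Of their 48 regions 43.8% were positive (30.7 to 57.7), an interval that holds the 32.6% of the whole list. Their median absolute score was 44.8, against 65.7 at the Ebf genes. The strongest were -241 at Ppargc1a, a coactivator of mitochondrial genes with 12 of 14 regions negative, then -104 at Adipoq, which encodes adiponectin, and 102 at Pparg, the master regulator of fat cells, with 6 of 7 regions positive. Fabp4, a fatty acid carrier of adipocytes, had 7 of 8 positive. Ucp1, which encodes the uncoupling protein of brown fat, had 2 regions, both positive, and was the only member with positive regions alone. Only negative regions were found at 4 members, with 2 each at Cebpb and Dio2 and 1 each at Cebpd and Ppara. Cidea, a lipid droplet gene of brown fat, had 3 of 4 negative, with a strongest score of -90.0, Cebpa had 2 of 3 negative, and Adipoq had 2 of each sign. Cox7a1 had none.

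B-lineage targets and partners had regions at 9 of 10 members, against 68.5% of protein-coding genes. Of their 22 regions 5 were positive (22.7%, 10.1 to 43.4), and this interval too holds the 32.6% of the list. Vpreb1 and Igll1, which are neighbours, held the same 3 regions. These were counted once among the 22, but both genes are among the 9 members. Pax5, the gene of the B-cell identity factor that EBF1 activates, had 6 regions, none positive, with a strongest score of -117. Tcf3, which encodes the E2A partner of EBF1, had 2 of 3 positive but its strongest score was -202. Blk, which encodes a B-cell kinase, had 1 region, outside the gene, with a score of -76.2. Of the members with regions, only Pax5 and Foxo1 had their strongest region inside the gene.

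**Figure D5:**
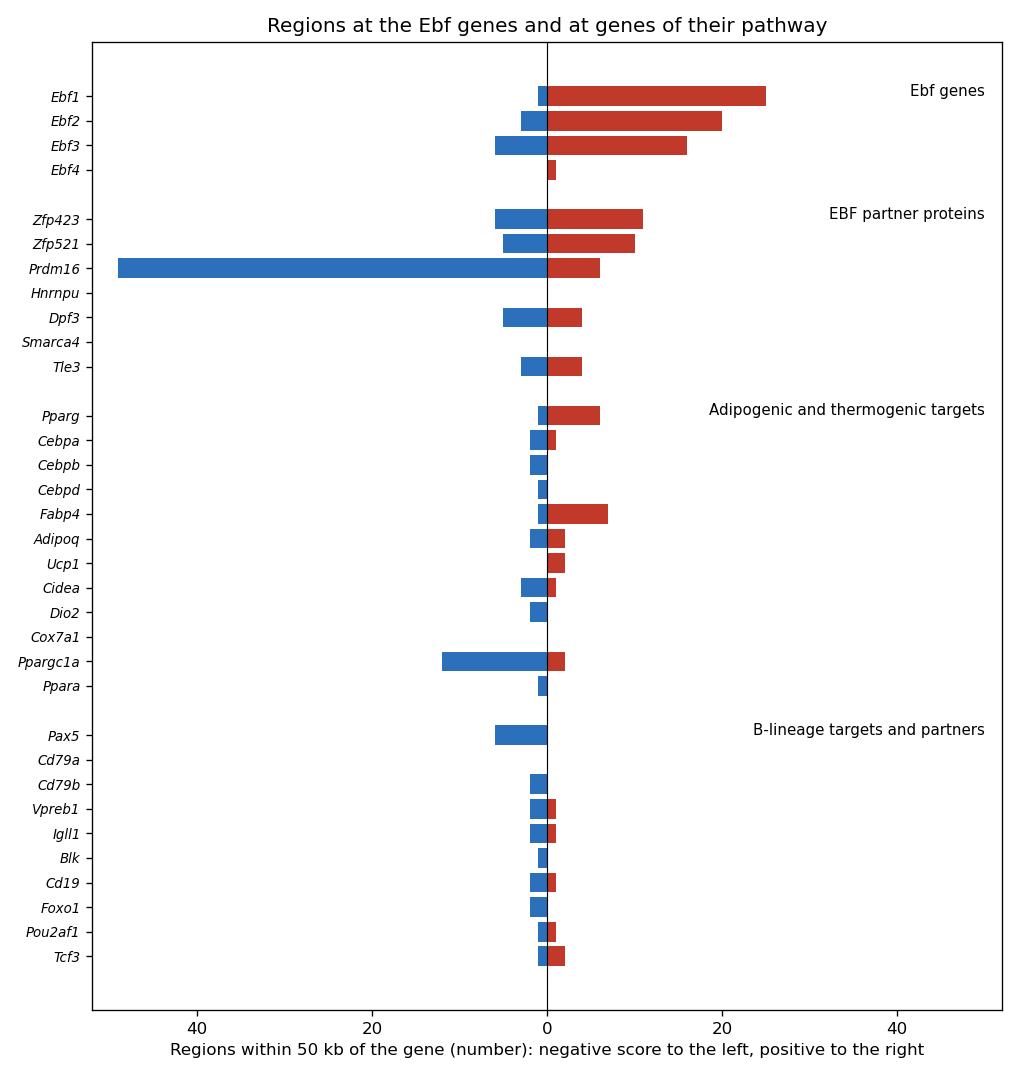
Number of regions within 50 kb of each gene, with positive regions drawn to the right and negative ones to the left, for the Ebf genes at the top and the 3 pathway lists below. Ebf1, Ebf2 and Ebf3 extend to 25, 20 and 16 on the positive side, and Prdm16 extends to 49 on the negative side.

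At least 10 regions within 50 kb, with at least 80% of them positive, were found at 0.132% of protein-coding genes, or 29, of which Ebf1 and Ebf2 were 2. Of the other 27, the 5 with most regions were Tcf4 (33 regions, 30 positive), Zfhx4 (20, all positive), Prrx1 (18, of which 17 positive), Rgl1 (17, of which 14 positive) and Tcf7l2 (16, of which 13 positive). This likeness is by number and sign of regions in 1 comparison of 2 libraries. The strongest scores at these genes were -363 at Tcf4, 234 at Zfhx4, 1391 at Prrx1, 137 at Rgl1 and 187 at Tcf7l2. Ebf3 met the number but not the share. Windows of neighbouring genes can hold the same regions, so the 27 genes are not all separate loci. Ferd3l and Twist1, for example, had the same strongest region, with a score of 654.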

How the data were processed

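The bisulfite libraries, 1 of PDGFRα+ and 1 of CD137+ cells, were represented by a list of differentially methylated regions that the authors deposited. It has no header and holds chromosome, start, end and a signed score. The score is the authors' own value per region, and for its scale, sign convention, caller and thresholds, as for the aligner and coverage, no source used here gives a statement. Per the submitters' processing notes, coordinates are mm10. Regions were joined (1 bp overlap or more) to gene bodies of the RefSeq table for GRCm38.p6, extended by 50 kb, and promoter sequences came from RefSeq. Backgrounds were counted over all regions or over 21887 protein-coding genes. Shares carry 95% Wilson intervals, which cover counting only. Interval counting was tested on simulated regions and against direct counting. Python 3.11.15, pandas 2.3.3, numpy 2.4.6 and scipy 1.17.1 were used.

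The members and gene lists were chosen with earlier results of these data known. The text names, for each gene, the 3 regions of largest absolute score, those nearest the start and those of the rarer sign, and from each list the 3 genes with the largest absolute scores, with a few more whose values had been seen. With 1 library per group no test was run. The alternatives tried were gene windows, score and width filters, overlap rules and weights.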

Additional observations from a re-analysis of the deposited data

How the results depend on the processing

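The positive share at Ebf1, Ebf2 and Ebf3 stayed above the 32.6% of the whole list under each of the 9 alternatives tried for it. Requiring an absolute score of 100 or more left 9 regions at Ebf1 (100% positive), 8 at Ebf2 and 8 at Ebf3 (62.5% positive at each, with an interval of 30.6 to 86.3 that reaches below 32.6%). Requiring a width of 100 bp left 16 at Ebf1. In the gene body alone, the share at Ebf2 was 100%. Weighted by absolute score, the share at Ebf3 was 90.9%. Ranked by absolute score per bp, the strongest region of Ebf1 scored 189, and that of Ebf2 scored -199.8, the reverse sign, since it is one of the 3 negative regions outside the gene end. At 100 kb on both sides Ebf4 had 2 regions. Adipogenic and thermogenic targets with a region numbered 5 within 5 kb and 3 at an absolute score of 100 or more, and B-lineage genes 5 and 2, out of 12 and 10 members. Over protein-coding genes these shares were 35.1% and 24.8%. Without Prdm16, an alternative chosen after seeing the data, the positive share of partner genes was 60.4% against 34.0% with it. The other 67 of 83 values stayed within 1.5 times the main count, within the interval of the main share or at the same strongest score. No paired analysis was possible because each group has 1 library, and leaving out a replicate was not possible for the same reason. The list gives no coverage, so depth sets a limit that cannot be stated.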
